A study of Arabidopsis thaliana with 2 samples.

Results

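SAG29, AT3G05400 and APL3 are 3 Arabidopsis genes of sugar movement and starch synthesis, out of 13356 genes that had a probe set of their own in the annotation used, and each was read by 1 of 22746 analysed probe sets. The probe sets were fixed by identifier: 245982_at for SAG29 (locus AT5G13170, also named SWEET15), 259133_at for AT3G05400, a sugar transporter-like gene, and 252888_at for APL3 (locus AT4G39210). These genes were chosen by their measured ratio on these same arrays, at least 2-fold higher in the ros1-1 mutant, so that difference is given as a description and supports nothing further. The arrays carried total RNA of 15-day seedlings of the accession C24 and of ros1-1, a mutant of the DNA demethylase gene ROS1 that the series' design text places in the C24 background. Both were grown on MS medium under the same light and temperature, with 1 array for each genotype. There were no replicates and no test was run. Whether each RNA came from pooled plants is not given in the sources used here.

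Sugars made in leaves leave the cell, travel in the phloem and enter growing tissue through membrane transporters. SWEET proteins let sugars pass along their gradient, and the SWEET subgroup that holds SAG29 carries sucrose. SAG29 is known from senescing leaves and from seeds, where it helps to pass sucrose to the embryo. ERD6-like proteins, the group in which AT3G05400 was listed, belong to the monosaccharide transporter superfamily. ADP-glucose pyrophosphorylase makes the glucosyl donor for starch in the plastid. It is built of small and large subunits, and APL3 and APL4 are large subunits known from non-leaf tissue and from induction by sucrose. ROS1 is a glycosylase that removes methylated cytosine from DNA.

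The deposited values are linear MAS5 signals, one per probe set, with medians of 216 in wild type and 213 in ros1-1. For ratios, values under a floor of 132, the 40th percentile of both arrays, were raised to it. Probe sets that attained this floor in at least 1 genotype, 14126 in all, are called measured. Of these, 29, or 0.205%, showed at least 2-fold more signal in ros1-1, and 34, or 0.241%, at least 2-fold less. The shares were 1.85% and 1.95% at 1.5-fold and 0.00708% and 0.0708% at 3-fold. Markers of both green tissue and root were measured in these seedlings. RCA, which activates Rubisco, gave 15226 in wild type and 17658 in ros1-1, while the photosystem genes LHCB4.1 and PSAN gave 18035 and 16264 and 7892 and 6615. The 3 green tissue markers had summed signals of 41153 and 40537 and a median log2 ratio of -0.15. Of the root markers, PYK10, an abundant root glucosidase, gave 13028 and 13729, a log2 ratio of 0.08. The root hair expansins were dim, with 154 and 193 for EXPA7, a log2 ratio of 0.33, and 262 and 373 for EXPA18, a log2 ratio of 0.51. The 3 root markers had summed signals of 13445 and 14296, nearly all from PYK10, and a median of 0.33. Bulk RNA cannot separate fewer cells of a type from less RNA per cell, and the part of tissue makeup in the values below was not tested. ROS1 itself was not analysed here, nor were markers of seed or of senescing leaf such as SAG12.

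On the C24 array SAG29 gave a signal of 411, and on the ros1-1 array 957. This is 2.33-fold higher in ros1-1, or 1.22 on the log2 scale. In wild type it ranked 7833rd by brightness among all probe sets, at percentile 65.6, and in ros1-1 it ranked 3641st, at percentile 84.0. It therefore stood 4192 places higher in the mutant array, and 55 of 22746 probe sets gained as many places or more. A rank orders probe set signals and does not compare amounts of transcript, since probe sets differ in how they bind.

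AT3G05400 had the largest ratio of the 3 genes. It read 268 on the C24 array against 671 on the mutant array, 2.51-fold higher or 1.33 on the log2 scale. Its rank went from 10216th, at percentile 55.1, to 5104th, at percentile 77.6, a gain of 5112 places that 17 probe sets reached or passed. It had the 10th highest ratio among all measured probe sets, where SAG29 stood 14th and APL3 28th.

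APL3 was the dimmest. Its wild-type signal of 145 lay just above the floor, and its ros1-1 signal was 292, 2.01-fold higher or 1.01 on the log2 scale. It lay under the array median in wild type, at percentile 41.7 and rank 13261, and above it in ros1-1, at percentile 57.6 and rank 9646. The gain of 3615 places was reached or passed by 128 probe sets. Adding an offset of 132 to both signals in place of the floor brought its log2 ratio to 0.61, under 2-fold. A higher floor, the 60th percentile or a signal of 325, left APL3 without a ratio, since both of its signals were below it.

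**Figure D1:**
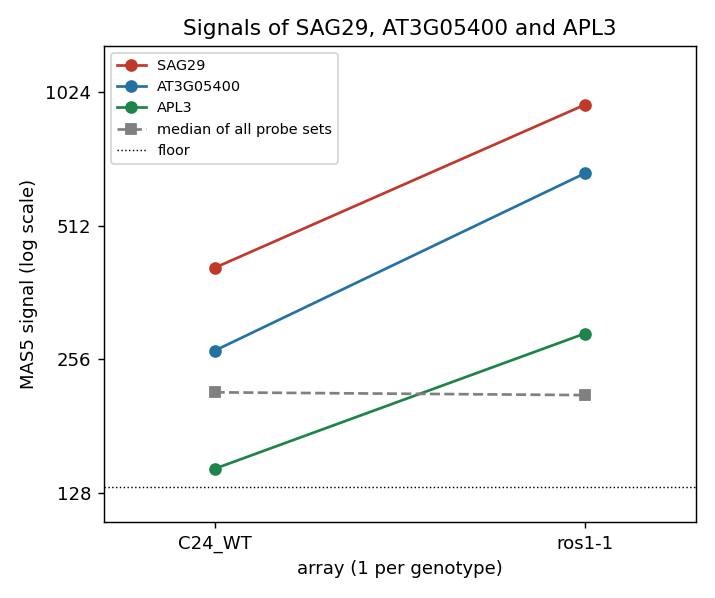
MAS5 signal (log scale) for C24_WT and ros1-1, 1 array each, for SAG29, AT3G05400 and APL3, with the median of all probe sets as grey squares and the floor of 132 as a dotted line. The 3 lines run upward, from 411 to 957, from 268 to 671 and from 145 to 292, while the median stays at 216 and 213.

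The choice at 2-fold or more left little room between the log2 ratios of the 3 genes, since 0% of measured genes were at least 3-fold higher. Their closeness is therefore no sign of a shared behaviour. SAG29 and AT3G05400 differed by 0.11 and SAG29 and APL3 by 0.21, while AT3G05400 and APL3 differed by 0.31. The available measure of error was the scatter of probe sets that target 1 gene. Over 61 genes with several probe sets that were not raised to the floor, the log2 ratio of a probe set scattered about its gene's mean with an SD of 0.19. The 2-fold rule that chose the genes fixed their ratios above that scatter in advance. The scatter leaves out differences between plants, RNA extractions and labelling reactions, which were not measured. Each of the 3 genes had a single probe set, of the plain _at type, so no second probe set could be set beside it.

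The spread of ratios around each gene depended on signal. With measured probe sets divided by mean log2 signal into 10 steps of equal number, SAG29 fell in step 7, counted from the dimmest, where the log2 ratios had an SD of 0.23 and 3 of 1412 probe sets were at least 2-fold higher. AT3G05400 fell in step 5, with an SD of 0.28 and 5 of 1412 at least 2-fold higher. APL3 fell in step 2, with an SD of 0.35, where 3 of 1413 probe sets were at least 2-fold higher and 4 at least 2-fold lower.

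**Figure D2:**
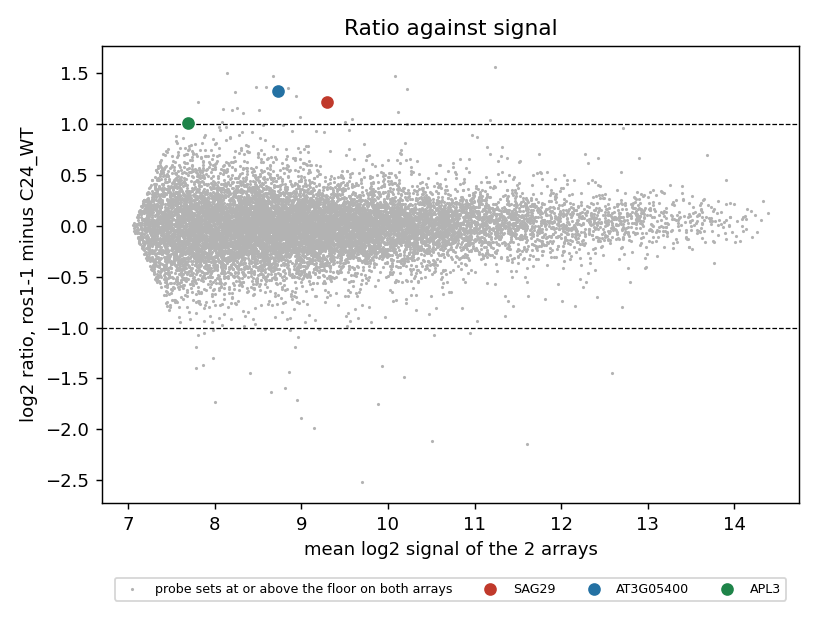
Log2 ratio of ros1-1 to C24_WT (vertical) against the mean log2 signal of both arrays (horizontal) for probe sets that were not raised to the floor, with dashed lines at 2-fold. SAG29, AT3G05400 and APL3 lie at 1.22, 1.33 and 1.01 on the upper side of the cloud, with APL3 at the dim end, where the cloud is wider.

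APL3 was the last gene to meet the 2-fold rule. Just inside it lay also AT1G43910, with signals of 219 and 473 and a 2.16-fold higher value, and AT2G41730, with 199 and 438. Just outside lay AT1G19200, with 89.3 and 264, AT3G05730, with 4805 and 9366 and a 1.95-fold higher value, and AT2G43620, with 107 and 257. AT1G19200 and AT2G43620 were under the floor in wild type, so their ratios are bounds.

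In the SWEET family SAG29 had the largest log2 ratio among measured genes, as the rule that chose it made likely in advance. A named probe set existed for 16 of the 17 SWEET genes, and of the 8 that were measured 1, SAG29, was at least 2-fold different. Among measured genes, taken at their brightest probe set, 0.161% were at least 2-fold higher and 0.201% at least 2-fold lower, with 0% and 0.0268% at 3-fold. The measured SWEET genes had a median log2 ratio of -0.05, against -0.01 over all 7464 measured genes, and 3 of 8 ratios were above 0. Without SAG29 the median was -0.06, with 2 of 7 above 0. In the sucrose-carrying subgroup, SWEET11, which releases sucrose for phloem loading in leaves, went from 2754 to 1861, 1.48-fold lower or -0.57 on the log2 scale. SWEET13, a sucrose transporter of the same subgroup, went from 264 to 183, 1.44-fold lower or -0.53. With the offset SWEET13 was at -0.33, and with the 60th percentile floor it had no ratio. Both signals were lower on the mutant array, opposite in direction to SAG29, and neither reached 1.5-fold. SWEET9, SWEET10 and SWEET14, of this subgroup too, were under the floor on both arrays, and SWEET12 was not analysed here.

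Outside that subgroup, SWEET1, a glucose transporter of the plasma membrane, gave 573 and 678, a log2 ratio of 0.24. SWEET2, a glucose transporter of the vacuole membrane, had 723 and 844, a log2 ratio of 0.22. The vacuolar SWEET16 and SWEET17 had log2 ratios of -0.06 and -0.05. SWEET4 had 167 in wild type and was under the floor in ros1-1, a bound of -0.34. SWEET3, SWEET5, SWEET6, SWEET7 and SWEET8 did not attain the floor in either genotype, with signals between 17.6 and 102.

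In the ERD6-like group, 6 of 19 listed genes were measured and another 4 were under the floor. AT3G05400, chosen for its ratio, was 1 of these 6 and the single gene past 2-fold. SFP1, which is known to be induced in senescing leaves, gave 1511 and 1865, a log2 ratio of 0.30. Its tandem neighbour SFP2 had 382 and 377, a log2 ratio of -0.02. AT1G54730 had 390 and 519, a log2 ratio of 0.41, while AT1G19450 and AT4G04750 had 0.11 each. The median of the 6 was 0.21, and 0.11 without AT3G05400. AT3G05150, AT3G20460, AT4G04760 and AT5G18840 were under the floor on both arrays, and 2 further probe sets, each shared by 2 ERD6-like genes, were not used for any gene.

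For ADP-glucose pyrophosphorylase, the measured genes were the large subunits APL3 and APL4. The higher value of APL3 in ros1-1 was fixed by the choice, which leaves APL4 as the 1 other gene. APL4 read 576 on the C24 array and 970 on the mutant array, 1.68-fold higher or 0.75 on the log2 scale. Across all measured genes, 1.74% were at least 1.5-fold higher and 1.96% at least 1.5-fold lower. APL4 was brighter than the floor at the 60th percentile on both arrays, and its log2 ratio lay between 0.64 and 0.77 under the other scalings, floors and the offset. The small subunits ADG1 and APS2 and the large subunits APL1 and APL2 were not analysed here, so whether the whole enzyme moved was not measured.

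**Figure D3:**
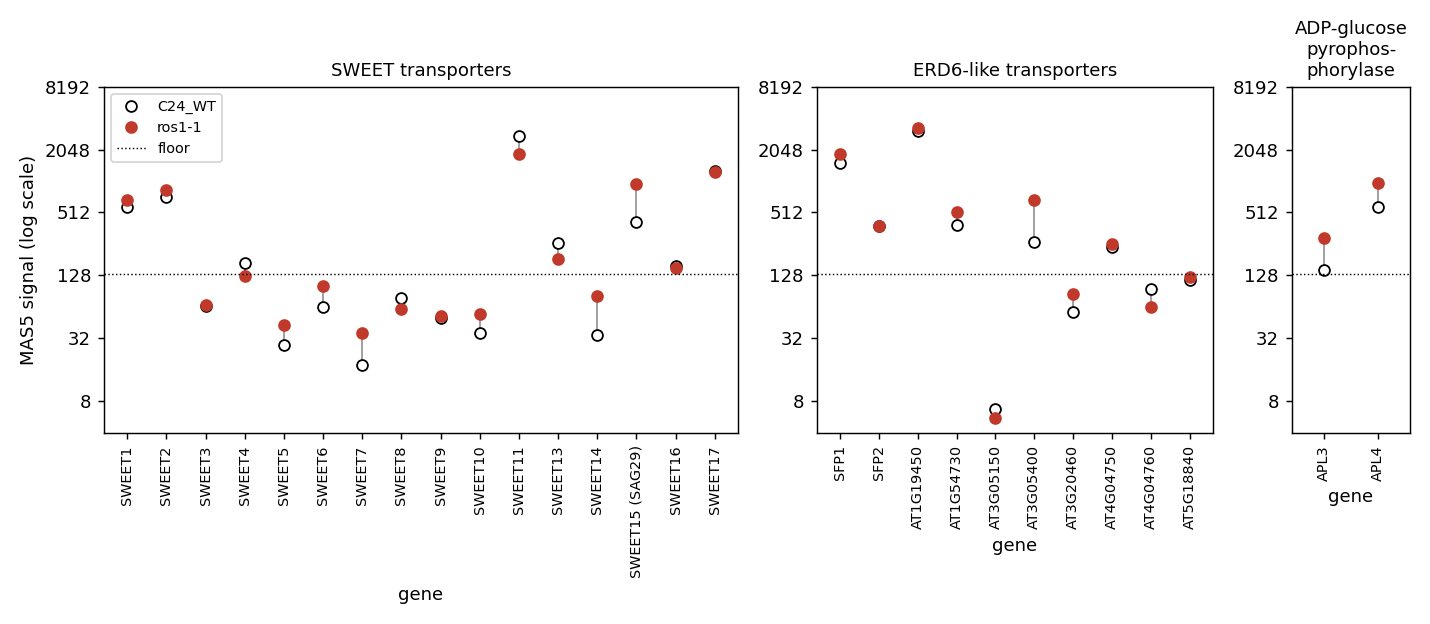
MAS5 signals (log scale) in C24_WT (open circles) and ros1-1 (filled red circles) for each named gene of the SWEET, ERD6-like and ADP-glucose pyrophosphorylase lists, with the floor of 132 as a dotted line. SAG29 and AT3G05400 show the widest gaps above the floor in their families, SWEET11 and SWEET13 have the lower signal in ros1-1, and APL3 and APL4 the higher.

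The wider pathway was described with lists of 143 genes, with a named probe set for 49 and a measured value for 33. Among these 33, the genes at least 2-fold higher were the 3 chosen for it and 0 were at least 2-fold lower, against 0.161% and 0.201% of measured genes. Of the 30 others, 2 were at least 1.5-fold higher, APL4 and AT1G34580, and 0 at least 1.5-fold lower, against 1.74% and 1.96% of measured genes. AT1G34580, from the list of monosaccharide symporters, had signals of 133 and 205, 1.54-fold higher, with the wild-type value next to the floor. With the offset its log2 ratio went from 0.63 to 0.35. The median log2 ratio of the 33 genes was 0.10, and 19 were above 0, against 3671 of 7464 measured genes. Without SAG29, AT3G05400 and APL3 the median was 0.07, with 16 of 30 above 0.

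The list of vacuolar, plastid, polyol and inositol transporters had 5 measured genes of 21, all with a ratio under 0 and a median of -0.11. Its brightest genes, AT5G59250 and AT5G17010, gave 2037 and 1939 and 1053 and 1024, with log2 ratios of -0.07 and -0.04. TMT1 and TMT2, which load sugars into the vacuole, had signals of 767 and 710 and of 582 and 499, with log2 ratios of -0.11 and -0.22. The second measured gene of the monosaccharide symporter list, AT5G61520, had 530 and 622, a log2 ratio of 0.23. The 9 sucrose symporters of the SUC family were not analysed here. Over all sugar transporters, 21 of 80 were measured, with a median of -0.02 that changed sign with the setting: it was 0.03 and 0.11 with the 25th and 60th percentile floors.

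The measured starch genes downstream of ADP-glucose had log2 ratios from -0.19 to 0.43. In the list of other starch synthesis genes, 3 of 16 were measured. SBE2.2, a starch branching enzyme, gave 1647 and 1782, a log2 ratio of 0.11. AT5G65685 and AT5G39790, the other measured genes of the starch synthesis list, had log2 ratios of -0.01 and 0.28. In starch breakdown, 4 of 22 genes were measured, with a median of -0.02. DPE1, a plastid enzyme that rearranges maltodextrins, had 611 and 554, a log2 ratio of -0.14. AT5G26570, a phosphoglucan water dikinase gene, had 1345 and 1183, a log2 ratio of -0.19. AT4G24450, of the same enzyme family, had 221 and 297, a log2 ratio of 0.43. AMY1, a secreted alpha-amylase, was under the floor in wild type and had 141 in ros1-1.

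In sucrose synthesis and cleavage, 3 of 19 genes were measured and all 3 ratios were above 0. The sucrose phosphate synthase gene AT4G10120 gave 1364 and 1465, a log2 ratio of 0.10. AT1G62660, listed among vacuolar invertases, had 1235 and 1502, a log2 ratio of 0.28, and AT2G35840 had 0.05. The 6 genes of the list for sugar shortage were not analysed here.

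Because SAG29 is a gene of senescence, the list of senescence genes was set beside it. Of 14 genes, 3 were measured, with a median log2 ratio of 0.41 against -0.01 over all measured genes. At 1.5-fold, 0 of the 3 were higher and 0 lower, against 1.74% and 1.96% of measured genes. SAG101, a regulator of defence and senescence, gave 174 and 233, a log2 ratio of 0.43. WRKY53, a transcription factor that promotes senescence, had 163 and 216, a log2 ratio of 0.41. WRKY6, another transcription factor of senescence and defence, had 246 and 266, a log2 ratio of 0.11. SAG101 and WRKY53 were dimmer than the array median in wild type, and with the offset the median of the list was 0.24. With the 60th percentile floor, a signal of 325, the list had no median, since all 3 genes were below it on both arrays.

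**Figure D4:**
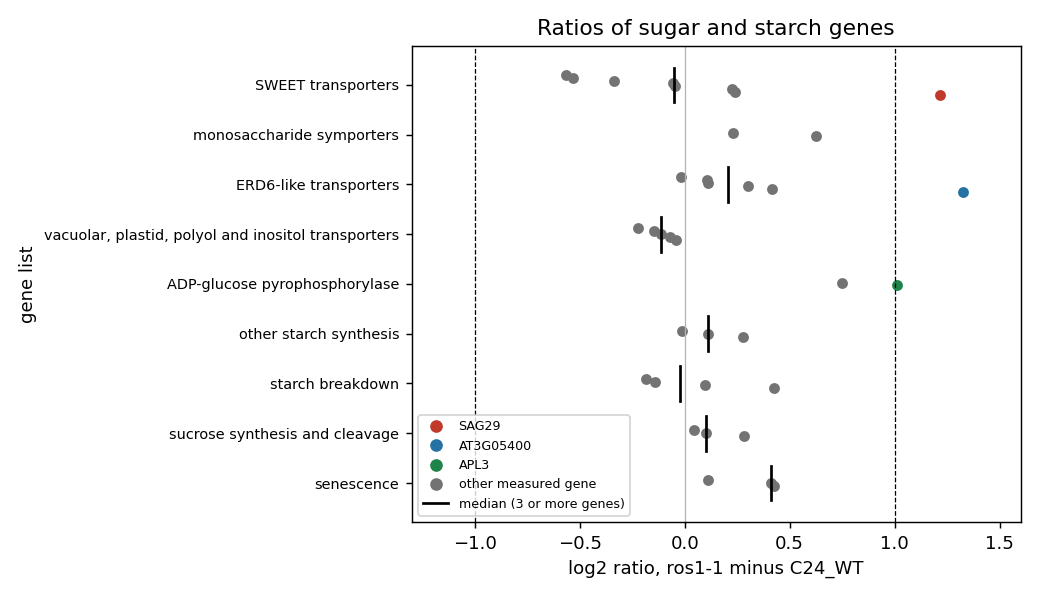
Log2 ratio of ros1-1 to C24_WT (horizontal) for each measured gene of the sugar, starch and senescence lists (vertical), with black bars at the median of lists with 3 or more measured genes and dashed lines at 2-fold. SAG29, AT3G05400 and APL3 are the points past 2-fold, and the medians lie between -0.11 and 0.41.

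Genes with the most similar pair of signals were found by distance between the log2 signals on the 2 arrays, so the likeness rests on 2 values a gene. For SAG29 the nearest was AT2G38610, with signals of 418 and 797, at a distance of 0.27, followed by AT5G20790 and AT3G44330 at 0.43 and 0.46. For AT3G05400 the nearest was AT3G16660, with 245 and 681, at 0.13, then AT2G04050 at 0.20 and AT1G80130 at 0.31. For APL3 the nearest was cwINV6, which the gene table names a fructan exohydrolase, with 161 and 280, 1.74-fold higher, at 0.16. AT1G32120 and AT2G42240 followed at 0.18 each.

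The genes beside SAG29, AT3G05400 and APL3 on their chromosomes were looked up as well. Of the 5 protein-coding genes on each side of each in locus order, 15 of 30 could be named on the array, and of the 9 measured 0 reached 1.5-fold, which 1.74% of measured genes did in the higher and 1.96% in the lower direction. Beside SAG29, AT5G13140 and AT5G13200 had log2 ratios of 0.16 and 0.05. The gene next to AT3G05400, AT3G05410, gave 290 and 279, a log2 ratio of -0.05. Beside APL3, AT4G39200 had the highest ratio of these neighbours, with 3515 and 4985 and a log2 ratio of 0.50, while ATRER1A on the other side had 1218 and 1212, a log2 ratio of -0.01. SWEET16, with 156 and 150, lies close to AT3G16660 in locus order and had a ratio near 0.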

How the data were processed

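The authors deposited 1 linear signal intensity for each probe set and array, summarised with MAS5 according to the submitters' processing notes. Its version, scaling target and detection calls are unknown here. With 2% of values trimmed from either end the mean was 500.04 for C24_WT and for ros1-1, and no further scaling was applied. Of 22810 probe sets, 64 controls were set aside. Genes were named from the platform annotation, with symbols taken from the TAIR10.1 gene table: 13513 probe sets had 1 gene, 503 several and 8730 none, and 13436 matched the table. Probe sets with several genes name none.

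The ratio was log2 of ros1-1 minus log2 of C24_WT after values under the 40th percentile were raised to it. A gene took the value of its brightest probe set. With 1 array per genotype no test was run, and the number of arrays limits the precision. Computation used Python 3.11.15, numpy 2.4.6, pandas 2.3.3 and, for a lowess alternative, statsmodels 0.14.6. The steps were tested on simulated data, with changes planted only in probe sets brighter in wild type than the 3 members. That test does not cover signals as dim as theirs.

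The members and lists were chosen with earlier results of these data known. Named genes were the 3 members, list genes at least 1.5-fold different or otherwise the 2 brightest of a list, all genes of the 3 families, the 3 nearest genes to each member and the 3 on each side of the 2-fold rule. Neighbours in locus order and further list genes were added after values had been seen. Alternatives were other floors, an offset, 3 scalings, other thresholds, plain _at probe sets and averaging the probe sets of each gene.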

Additional observations from a re-analysis of the deposited data

How the results depend on the processing

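When an offset replaced the floor, the log2 ratio was 1.00 for SAG29, 1.01 for AT3G05400 and 0.61 for APL3. Raising the floor to the 60th percentile gave 1.05 for AT3G05400 and no value for APL3. Rescaling moved these ratios little, to at most 1.24, 1.35 and 1.03. At 3-fold, 0 of the 3 genes passed. In the sugar and starch lists 5 of 33 measured genes were at least 1.5-fold higher, or 2 of 30 without the 3 genes chosen for their ratio. At 3-fold, 0 of the 33 were higher. Over all measured genes the shares were 1.74% and 0%. Over all probe sets, the numbers at least 2-fold higher and lower were 80 and 99 for the 25th percentile floor, 15 and 19 for the 60th and 12 and 20 for the offset. They were 261 and 276 at 1.5-fold and 1 and 10 at 3-fold. The SWEET median rose to 0.22 under the 60th percentile floor, which left fewer genes measured. Other list medians moved too: that of all sugar transporters lay between -0.02 and 0.11, of starch breakdown between -0.16 and 0.05 and of all sugar and starch lists between 0.09 and 0.11. Percentiles of the 3 genes within an array moved by at most 0.67 points when only plain _at probe sets were kept. Quantile normalization keeps the order of signals, so it could not move them, and no other setting was tried for percentiles. A floor or an offset cannot turn the direction of a single gene's ratio, but it changes which genes enter a median. No paired analysis was possible because each genotype had 1 array. Low signal limits APL3 most.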
